A study of Mus musculus with 21 samples.

Results

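The amino acid carriers of the SLC1, SLC3, SLC6, SLC7, SLC36, SLC38 and SLC43 families were followed in 21 liver RNA libraries of wild-type mice. They were taken as the protein-coding genes whose symbols begin with Slc1a, Slc3a, Slc6a, Slc7a, Slc36a, Slc38a or Slc43a and a number, which gave 64 of 52636 gene IDs. CDA-HFD is a choline-deficient, amino acid-defined, high-fat diet that produces steatohepatitis with fibrosis in mice. The groups were 8 livers taken after 8 weeks of CDA-HFD, 8 livers taken after 16 weeks of CDA-HFD, and 5 livers of mice on normal chow, taken after 8 weeks of chow at a point labelled week 0. No strain, sex, age or batch is given in the labels. The only chow group is labelled week 0, and no chow group is labelled week 8 or 16. In both comparisons against chow, the age of the mice and their time on CDA-HFD therefore cannot be told apart. The same holds between 8 and 16 weeks of CDA-HFD. Nothing states that the samples of a group came from separate animals, so p-values measure the spread between these samples, which may be technical.

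These carriers move amino acids and related small molecules across membranes, some by uniport, others by exchange or together with sodium or protons. Several SLC7 proteins reach the cell surface only with a heavy chain of the SLC3 family bound to them, so that a light chain and its heavy chain work as a pair. In the liver, hepatocytes near the portal vein take up amino acids for breakdown, urea synthesis and glucose production, and hepatocytes near the central vein make glutamine. Amino acid shortage and oxidative stress raise the activity of the transcription factors ATF4 and NRF2, and Slc7a11 is a known target gene of both. Not every member carries amino acids: Slc6a8 moves creatine, Slc6a6 taurine, Slc43a3 nucleobases, and Slc7a6os, which meets the rule by its symbol, is a neighbour of Slc7a6 and not a carrier.

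Promoter windows from RefSeq (GRCm38.p6, 300 bases around a start site) were found for 46 of the 64 members and held 67 start sites. They were searched on both strands for TGATGNAA, the C/EBP-ATF response element bound by ATF4, and for TGACNNNGC, the core of the antioxidant response element bound by NRF2; both begin with TGA and differ at the next base, so read in 1 direction they cannot match from the same first base. TGATGNAA occurred in 5 member windows, which belong to Slc7a11, Slc1a4, Slc7a7 and Slc6a21, and in 3.97% of all 32851 windows. TGACNNNGC occurred in 11 member windows of 9 members, among them Slc7a1, Slc7a6 and Slc38a2, and in 12.4% of all windows. The windows of the 3 matching genes that passed the filter on low counts are shown because all 3 rose on CDA-HFD; capitals mark TGATGNAA or its reverse complement. The sequences run 5′ to 3′ on the gene's strand:
Slc7a11 promoter, chr3:50443564-50443863, minus strand: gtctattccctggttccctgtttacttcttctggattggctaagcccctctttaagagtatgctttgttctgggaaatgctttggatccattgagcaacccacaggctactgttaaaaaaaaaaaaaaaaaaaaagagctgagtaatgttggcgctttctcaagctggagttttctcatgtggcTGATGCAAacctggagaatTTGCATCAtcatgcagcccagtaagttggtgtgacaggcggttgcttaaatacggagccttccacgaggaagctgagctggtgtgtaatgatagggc
Slc1a4 promoter, chr11:20332664-20332963, minus strand: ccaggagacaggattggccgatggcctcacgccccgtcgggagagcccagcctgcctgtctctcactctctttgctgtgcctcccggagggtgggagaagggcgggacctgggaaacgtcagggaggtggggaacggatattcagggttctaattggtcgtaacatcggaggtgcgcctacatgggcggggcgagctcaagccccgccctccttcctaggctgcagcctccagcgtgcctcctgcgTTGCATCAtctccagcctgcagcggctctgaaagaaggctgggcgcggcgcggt
Slc7a7 promoter, chr14:54417895-54418194, minus strand: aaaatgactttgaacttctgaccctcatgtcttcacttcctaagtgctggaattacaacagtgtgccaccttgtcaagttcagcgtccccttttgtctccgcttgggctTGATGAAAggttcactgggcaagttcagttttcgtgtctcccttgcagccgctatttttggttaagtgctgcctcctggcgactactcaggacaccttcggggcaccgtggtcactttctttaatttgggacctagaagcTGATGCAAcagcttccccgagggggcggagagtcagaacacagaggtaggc

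In the Slc7a11 window the motif lies at -66 to -59 and, on the other strand, at -47 to -40, counted from the start site at 1. The Slc1a4 window has it on the other strand across the start site, at -4 to 4. The Slc7a7 window shown has TGATGAAA at -141 to -134 and TGATGCAA at -1 to 7. A match is a description of these letters and not a test of binding.

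Gene levels are CPM (counts scaled to library size) after TMM scaling, and changes are log2 changes from edgeR's quasi-likelihood test with Benjamini-Hochberg adjustment over 17104 genes; a gene is called at an adjusted p under 0.05. Each ± beside a level is the SD over 8, 8 and 5 libraries, and that beside a log2 change its standard error. Library totals ran from 29037525 to 45868842 counts at 8 weeks, from 35254088 to 48901145 at 16 weeks and from 33522456 to 42586342 on chow. Replicates are numbered here by the order of the samples within each group, and the labels do not use these numbers. Replicate 3 of the 8-week group stood apart, with 0.2495% of its counts from mitochondrial genes, a TMM factor of 0.4955 and a correlation with the other libraries of its group, across genes, of 0.829 to 0.898. It was the highest of 8 libraries for 11 and the lowest for 18 of the 38 members tested, so values without it are given where leaving it out changed a call or moved a called change by over 1.5 times, and for some others. In bulk tissue, fewer cells of a type and less RNA per cell cannot be told apart. Scaling by total counts alone would move the median log2 change of all genes up by 0.118 at 8 weeks, by 0.528 at 16 weeks and by 0.376 in 16 against 8 weeks. It would also move the share of called genes that were higher to 78.3%, 89.5% and 94.8%, against 60.1%, 56.6% and 49% with TMM.

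Of the 64 members, 38 passed the filter on low counts. The other 26 averaged at most 0.2195 CPM in any group, never exceeded 1.25 CPM in a library, and 3 of them (Slc36a3, Slc6a18 and Slc7a12) had no count at all. Slc7a9, the usual partner of Slc3a1, and Slc6a19, the main neutral amino acid carrier of kidney and intestine, were among the 26. After 8 weeks of CDA-HFD, 18 of the 38 were higher and 6 lower than on chow, where 30.8% of all genes were called higher and 20.5% lower. The median log2 change was 0.50, beside 0.16 over all genes tested. After 16 weeks, 17 were higher and 7 lower, where 29.4% of all genes were called higher and 22.5% lower, with a median log2 change of 0.38 beside 0.03. In each comparison 63.2% of the 38 were called, beside 51.3% of all genes at 8 weeks and 51.9% at 16 weeks, so a call by itself says little of these families. Both comparisons use the same 5 chow livers. Slc7a11, Slc1a1 and Slc6a7, with 10, 2 and 14 counts in all chow libraries together, passed the filter through CDA-HFD libraries alone. Among tested members they could only be called higher against chow, and they count among the 18 and the 17. Larger changes, of at least 2-fold, were called in 17 of the 38 at 8 weeks and in 17 at 16 weeks, beside 27.9% and 30.2% of all genes. CDA-HFD and chow libraries did not overlap for 17 of the 38 at 8 weeks and 22 at 16 weeks, beside 30.1% and 50.5% of all genes.

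**Figure D1:**
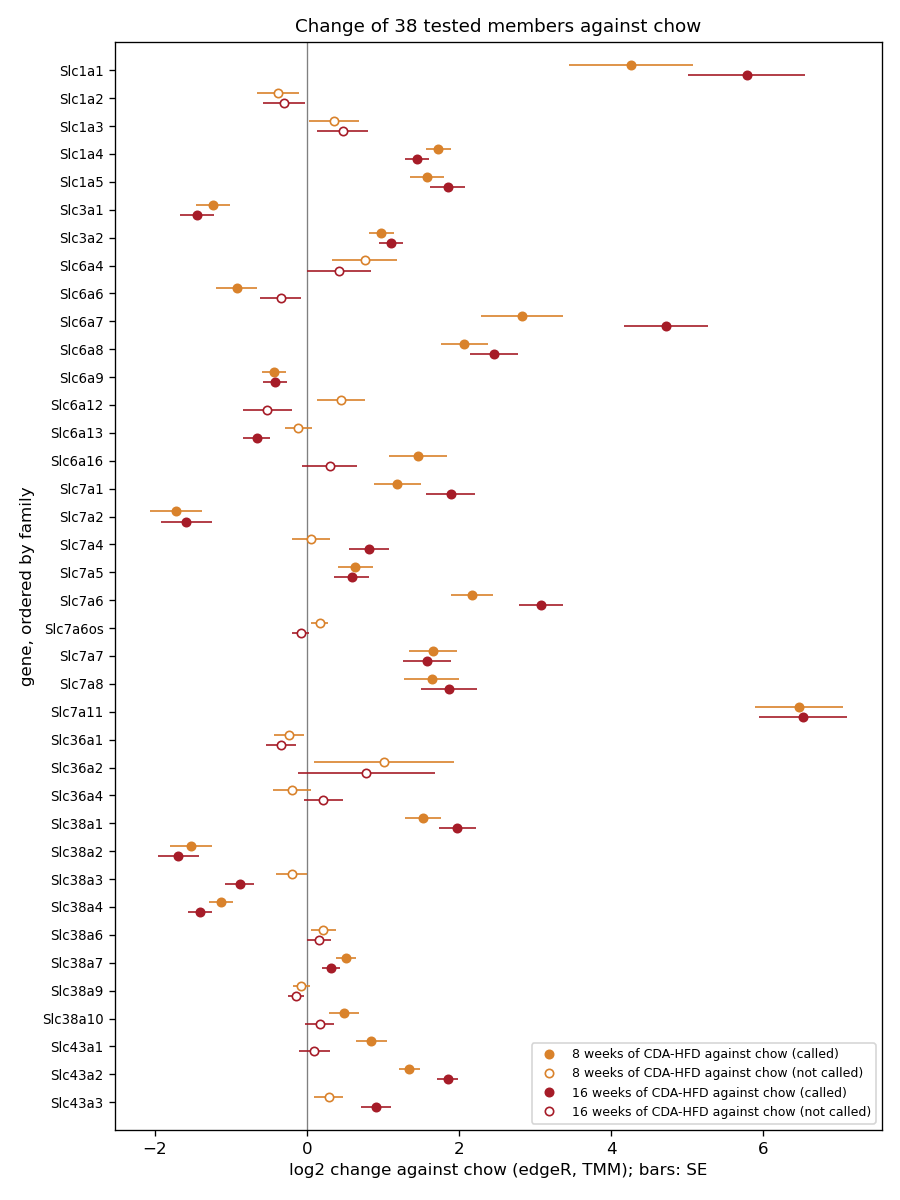
Log2 change against chow (x axis, edgeR with TMM scaling) of the 38 members tested, ordered by family from top to bottom; bars are standard errors, filled points are called at an adjusted p under 0.05 and open points are not. Slc7a11 lies at 6.47 and 6.52, farthest to the right, and Slc7a2 at -1.72 and Slc38a2 at -1.69 lie farthest to the left.

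The cystine and glutamate exchanger had the largest fitted log2 change of the 38 members at both times. Slc7a11 (ENSMUSG00000027737, chr3:49892526-50443614), its light chain, brings in cystine for glutathione synthesis in exchange for glutamate. Slc7a11 ran from 1.53 to 9.69 CPM (median 5.03) in 8-week livers and from 3.43 to 7.56 CPM (median 6.16) in 16-week livers, against 0.11, 0, 0.0674, 0 and 0.137 CPM in the 5 chow livers. The chow livers were at or near 0, and every CDA-HFD library lay above every chow library. Slc7a11 passed the filter on low counts through CDA-HFD libraries alone, so it could only be called higher. The log2 change of Slc7a11 was 6.47 ± 0.58 (SE; edgeR adjusted p = 3.18e-08) at 8 weeks and 6.52 ± 0.58 (edgeR adjusted p = 1.10e-08) at 16 weeks. With 10 counts in all 5 chow libraries, the size is uncertain: the pooled ratio was 102-fold (95% interval 55.1 to 212) at 8 weeks and 97.5-fold (52.9 to 204) at 16 weeks, where the exact interval covers counting error only. Slc3a2 (ENSMUSG00000010095, chr19:8706882-8723369), the 4F2 heavy chain (CD98) that Slc7a11 and several other light chains need, had higher levels on CDA-HFD too. Levels of Slc3a2 were 66.5 to 131 CPM (median 93.1) at 8 weeks and 89.5 to 134 CPM (median 102) at 16 weeks of CDA-HFD, against 49.97, 47.5, 47.6, 52.4 and 48.8 CPM on chow. No CDA-HFD library reached down to the chow libraries, which lay within a narrow range. Relative to the chow livers, Slc3a2 had a log2 change of 0.98 ± 0.16 (SE) at 8 weeks and 1.11 ± 0.16 at 16 weeks (edgeR adjusted p = 4.61e-05 and 6.14e-06).

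The other heavy chain moved the opposite way. Slc3a1 (ENSMUSG00000024131, chr17:85028376-85064236), known as rBAT, pairs with light chains for cystine and basic amino acids in the kidney. The 8-week livers held 36.2 to 101 CPM (median 51.2) and 16-week livers 34.4 to 61.9 CPM (median 49.4) of Slc3a1, and the chow livers 168, 86.8, 144, 99 and 159 CPM. At 8 weeks 1 library overlapped the chow libraries, and at 16 weeks none did. In log2 terms Slc3a1 changed by -1.23 ± 0.22 (SE) after 8 weeks and by -1.44 ± 0.22 after 16 weeks, with edgeR adjusted p = 0.000147 and 1.54e-05. Per kb of exon, the level of Slc3a2 over that of Slc3a1 within a library was 0.536 to 2.12 at 8 weeks and 1.16 to 2.20 at 16 weeks, against 0.191, 0.352, 0.212, 0.341 and 0.197 on chow. In all 5 chow livers Slc3a1 was the more abundant heavy chain per length, and in all 8 of the 16-week livers Slc3a2 was. This ratio was chosen after its values were seen and was not tested, and Slc3a1 overlaps Prepl on the other strand, whose reads cannot be told apart if counting ignored strand.

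**Figure D2:**
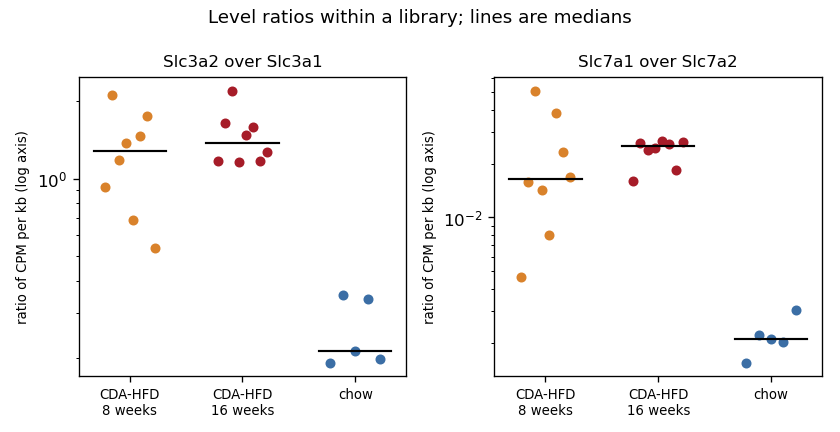
Ratio of levels per kb of exon within each library (y axis, logarithmic), for Slc3a2 over Slc3a1 on the left and Slc7a1 over Slc7a2 on the right, in livers after 8 and 16 weeks of CDA-HFD and on chow; points are libraries and lines are medians. The chow ratios of Slc3a2 over Slc3a1 end at 0.352, below the lowest 8-week ratio of 0.536.

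The light chains for large neutral and basic amino acids were higher on CDA-HFD. Slc7a6 (ENSMUSG00000031904, chr8:106168857-106198706), or y+LAT2, exchanges basic for neutral amino acids and sodium. Slc7a6 ran from 1.36 to 3.52 CPM (median 2.46) in 8-week livers and from 3.58 to 5.66 CPM (median 4.63) in 16-week livers, against 0.294, 0.574, 0.776, 0.319 and 0.712 CPM in the 5 chow livers. Chow libraries were all under 1 CPM and every CDA-HFD library was above them. The log2 change of Slc7a6 was 2.17 ± 0.28 (SE; edgeR adjusted p = 3.27e-06) at 8 weeks and 3.08 ± 0.29 (edgeR adjusted p = 2.57e-08) at 16 weeks. Slc7a7 (ENSMUSG00000000958, chr14:54369442-54417780), or y+LAT1, does the same in intestine, kidney and macrophages. Levels of Slc7a7 were 13.1 to 51 CPM (median 16) at 8 weeks and 14.5 to 24.9 CPM (median 18.1) at 16 weeks of CDA-HFD, against 3.75, 5.54, 7.99, 5.04 and 9.01 CPM on chow. The groups did not overlap, and the highest 8-week value came from replicate 3. Relative to the chow livers, Slc7a7 had a log2 change of 1.66 ± 0.31 (SE) at 8 weeks and 1.58 ± 0.31 at 16 weeks (edgeR adjusted p = 0.000184 and 0.00019). Without that replicate the 8-week log2 change was 1.29, and Slc7a7 overlaps Oxa1l on the other strand.

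Slc7a8 (ENSMUSG00000022180, chr14:54722209-54781946), or LAT2, carries small and large neutral amino acids. The 8-week livers held 2.5 to 41.6 CPM (median 29.5) and 16-week livers 28.3 to 42.1 CPM (median 32.8) of Slc7a8, and the chow livers 10.04, 8.23, 8.4, 9.27 and 9.45 CPM. The lowest 8-week value, below all chow libraries, was replicate 3, and the other CDA-HFD libraries lay above chow. The log2 change of Slc7a8 was 1.64 ± 0.36 (SE; edgeR adjusted p = 0.000941) at 8 weeks and 1.87 ± 0.37 (edgeR adjusted p = 0.000215) at 16 weeks. Leaving replicate 3 out put the 8-week log2 change at 1.81 (edgeR adjusted p = 5.88e-09). Slc7a5 (ENSMUSG00000040010, chr8:121881150-121907694), or LAT1, the carrier of branched-chain and aromatic amino acids in dividing cells, had the smallest log2 changes of the called light chains. Levels of Slc7a5 were 2.92 to 9.96 CPM (median 8.33) at 8 weeks and 6.15 to 8.89 CPM (median 7.54) at 16 weeks of CDA-HFD, against 2.79, 5.19, 5.53, 4.37 and 6.66 CPM on chow. Chow and CDA-HFD libraries overlapped at both times. Relative to the chow livers, Slc7a5 had a log2 change of 0.64 ± 0.23 (SE) at 8 weeks and 0.59 ± 0.23 at 16 weeks (edgeR adjusted p = 0.0263 and 0.039). Both calls rest on single libraries: the 8-week call was lost without chow replicate 1 or 4, and the 16-week call without any of 8 libraries (chow replicates 1, 2 and 4 and 16-week replicates 1, 3, 4, 6 and 7).

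Slc7a1 and Slc7a2, carriers of arginine and lysine, changed in opposite directions. Slc7a2 (ENSMUSG00000031596, chr8:40862396-40922308), or CAT2, is the abundant low-affinity form of hepatocytes. Slc7a2 ran from 39.98 to 492 CPM (median 218) in 8-week livers and from 172 to 350.2 CPM (median 261) in 16-week livers, against 1152, 662, 736, 602 and 680.2 CPM in the 5 chow livers. Chow replicate 1 was the highest and 8-week replicate 3 the lowest of all 21, and no CDA-HFD library reached the chow libraries. In log2 terms Slc7a2 changed by -1.72 ± 0.34 (SE) after 8 weeks and by -1.58 ± 0.34 after 16 weeks, with edgeR adjusted p = 0.000306 and 0.000467. Without 8-week replicate 3 the 8-week value was -1.57. Slc7a1 (ENSMUSG00000041313, chr5:148327410-148399904), or CAT1, the high-affinity form that most other cells use and adult hepatocytes nearly lack, was higher. Levels of Slc7a1 were 2.57 to 9.39 CPM (median 3.28) at 8 weeks and 5.16 to 11.6 CPM (median 6.83) at 16 weeks of CDA-HFD, against 2.24, 1.84, 1.96, 1.53 and 2.6 CPM on chow. The 8-week libraries just touched the chow range, and the 16-week libraries lay above it. Relative to the chow livers, Slc7a1 had a log2 change of 1.19 ± 0.31 (SE) at 8 weeks and 1.89 ± 0.32 at 16 weeks (edgeR adjusted p = 0.00338 and 3.79e-05). Slc7a2 was still the more abundant per length: Slc7a1 reached 0.00465 to 0.0510 of the Slc7a2 level per kb at 8 weeks and 0.0159 to 0.0269 at 16 weeks, against 0.00154 to 0.00303 on chow. This ratio, too, was chosen after its values were seen and was not tested. Slc7a4, a relative without settled transport activity, was called at 16 weeks, with 1.59 ± 0.5 CPM at 8 weeks, 2.7 ± 1.06 CPM at 16 weeks and 1.52 ± 0.154 CPM on chow (edgeR adjusted p = 0.859 at 8 weeks and 0.0102 at 16 weeks). Slc7a6os, which is no carrier, was not called, with 14.9 ± 2.17 CPM at 8 weeks, 12.6 ± 1.34 CPM at 16 weeks and 13.3 ± 1.26 CPM on chow (edgeR adjusted p = 0.229 at 8 weeks and 0.577 at 16 weeks). Slc7a4 overlaps P2rx6, and Slc7a2, Slc7a5 and Slc7a11 overlap predicted genes on the other strand.

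**Figure D3:**
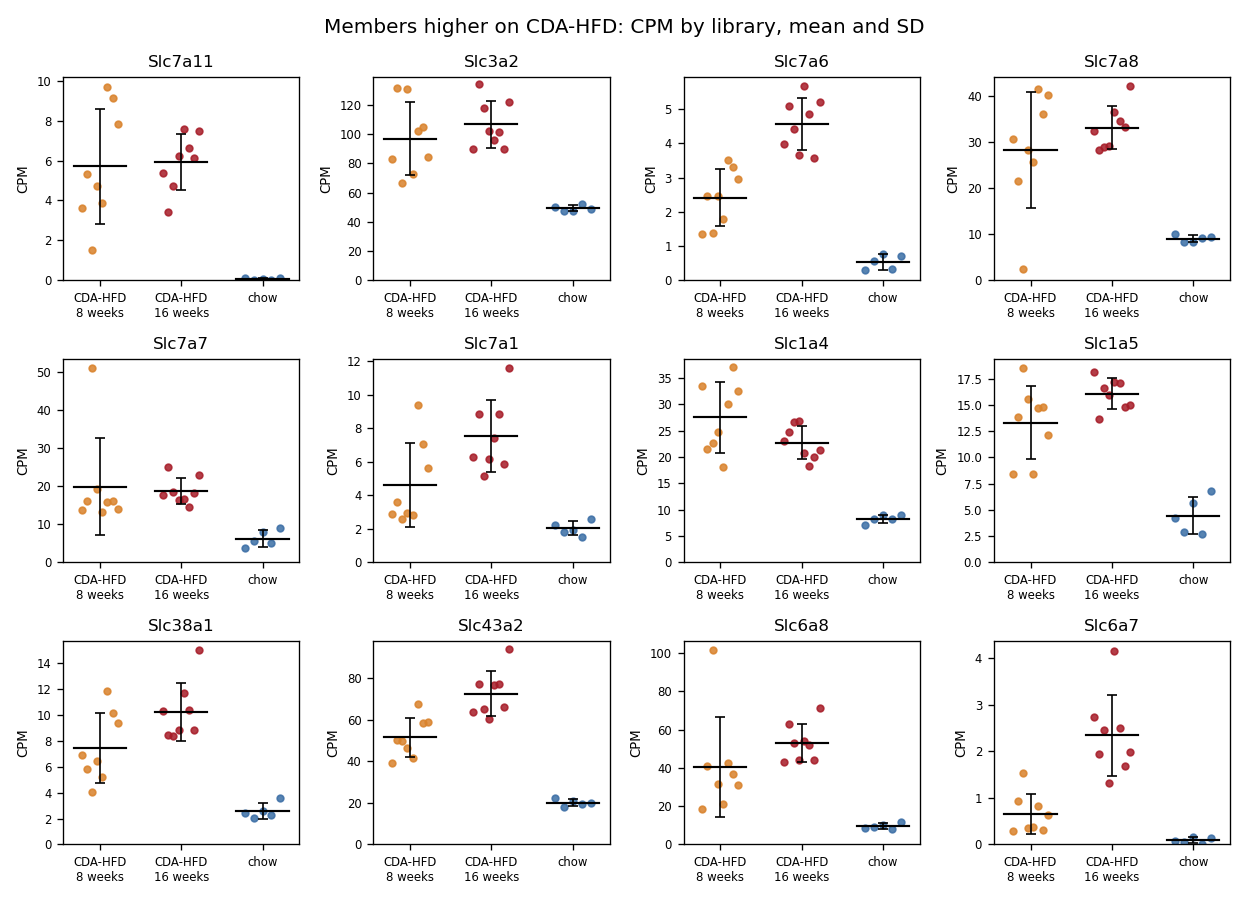
CPM by library (y axis, from 0, own scale per panel) of 12 members called higher on CDA-HFD, after 8 and 16 weeks of CDA-HFD and on chow; points are libraries, long lines are means and bars are SDs. The high single points at 8 weeks in Slc7a7 (51.0 CPM) and Slc6a8 (101.5 CPM) and the low one in Slc7a8 (2.5 CPM) are replicate 3.

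The SLC1 family holds the neutral exchangers and the glutamate carriers, and 3 of its 5 tested members were higher at each time. Slc1a4 (ENSMUSG00000020142, chr11:20302180-20332713), or ASCT1, exchanges alanine, serine, cysteine and threonine. The 8-week livers held 18.1 to 37.1 CPM (median 27.4) and 16-week livers 18.2 to 26.8 CPM (median 22.2) of Slc1a4, and the chow livers 7.13, 8.2, 8.97, 8.17 and 9.04 CPM. Every CDA-HFD library exceeded the chow libraries by a wide gap. The log2 change of Slc1a4 was 1.73 ± 0.16 (SE; edgeR adjusted p = 6.11e-08) at 8 weeks and 1.45 ± 0.16 (edgeR adjusted p = 2.40e-07) at 16 weeks. Slc1a5 (ENSMUSG00000001918, chr7:16781340-16798274), or ASCT2, is the glutamine exchanger of dividing cells. Slc1a5 ran from 8.43 to 18.6 CPM (median 14.2) in 8-week livers and from 13.7 to 18.1 CPM (median 16.3) in 16-week livers, against 4.19, 2.87, 5.67, 2.69 and 6.79 CPM in the 5 chow livers. The groups did not overlap at either time. Relative to the chow livers, Slc1a5 had a log2 change of 1.58 ± 0.22 (SE) at 8 weeks and 1.85 ± 0.23 at 16 weeks (edgeR adjusted p = 8.44e-06 and 7.15e-07). Slc1a2, or GLT-1, the glutamate carrier of hepatocytes next to the central vein, was not called, with 136 ± 29.2 CPM at 8 weeks, 144 ± 61.2 CPM at 16 weeks and 177 ± 22 CPM on chow (edgeR adjusted p = 0.256 at 8 weeks and 0.391 at 16 weeks). Replicates 2 and 8 of the 16-week group held 43.6 and 69.5 CPM of it, the lowest of all 21 libraries. Slc1a1, or EAAT3, a glutamate and cysteine carrier, stayed near or under 1 CPM and is named here after its values were seen: it had 80 counts in the 8-week and 365 in the 16-week livers, against 2 counts in all chow livers. The pooled ratio was 23.3-fold (exact 95% interval 6.26 to 196) at 8 weeks and 67.6-fold (18.6 to 561) at 16 weeks, covering counting error only. Slc1a3 was under 1.4 CPM in all libraries and not called, but without chow replicate 5 it was called higher at 16 weeks (log2 change 0.85, edgeR adjusted p = 0.0371).

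The most abundant carriers per length belonged to the SLC38 family, which moves glutamine, alanine and other neutral amino acids with sodium. Slc38a4 (ENSMUSG00000022464, chr15:96994820-97055956), or SNAT4, is a carrier largely of hepatocytes. Levels of Slc38a4 were 512 to 1041 CPM (median 612) at 8 weeks and 436 to 669.8 CPM (median 561) at 16 weeks of CDA-HFD, against 1928, 1474, 1431, 1291 and 1321 CPM on chow. All 16 CDA-HFD libraries lay under the lowest chow library. The log2 change of Slc38a4 was -1.13 ± 0.16 (SE; edgeR adjusted p = 1.24e-05) at 8 weeks and -1.40 ± 0.16 (edgeR adjusted p = 4.37e-07) at 16 weeks. Slc38a2 (ENSMUSG00000022462, chr15:96687392-96699730), or SNAT2, is the system A carrier that many cells raise when amino acids run short. Slc38a2 ran from 21.1 to 117 CPM (median 89.2) in 8-week livers and from 60.4 to 88 CPM (median 73.7) in 16-week livers, against 322, 157, 201, 309 and 179 CPM in the 5 chow livers. It was lower in every CDA-HFD library than in every chow library, and 8-week replicate 3 was the lowest. In log2 terms Slc38a2 changed by -1.52 ± 0.27 (SE) after 8 weeks and by -1.69 ± 0.27 after 16 weeks, with edgeR adjusted p = 0.000109 and 1.97e-05. Without that replicate the 8-week value was -1.38.

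Slc38a3 (ENSMUSG00000010064, chr9:107650634-107669530), or SNAT3, takes up and releases glutamine in hepatocytes and was called lower at 16 weeks. The 8-week livers held 843 to 2000 CPM (median 1137) and 16-week livers 654 to 974 CPM (median 726) of Slc38a3, and the chow livers 1975, 1217, 1415, 1304 and 1420 CPM. The 8-week range covered the whole chow range, while all 16-week libraries lay under chow. At 16 weeks the log2 change was -0.88 ± 0.19 (SE; edgeR adjusted p = 0.000631), and at 8 weeks the gene was not called (edgeR adjusted p = 0.394). The 16-week call was lost with total counts alone (log2 change -0.36, edgeR adjusted p = 0.157). Slc38a1 (ENSMUSG00000023169, chr15:96571418-96642913), or SNAT1, a system A carrier of brain and other tissues, was higher. Levels of Slc38a1 were 4.03 to 11.9 CPM (median 6.65) at 8 weeks and 8.34 to 15 CPM (median 9.57) at 16 weeks of CDA-HFD, against 2.46, 2.01, 2.6, 2.29 and 3.62 CPM on chow. No library overlapped between CDA-HFD and chow. Relative to the chow livers, Slc38a1 had a log2 change of 1.53 ± 0.24 (SE) at 8 weeks and 1.98 ± 0.24 at 16 weeks (edgeR adjusted p = 2.97e-05 and 8.59e-07).

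Slc38a7 and Slc38a9 sit on lysosomes, away from the cell surface. Slc38a7, which releases glutamine from lysosomes, was called higher, with 37.8 ± 8.92 CPM at 8 weeks, 33.1 ± 1.82 CPM at 16 weeks and 26.4 ± 1.76 CPM on chow (edgeR adjusted p = 0.00212 at 8 weeks and 0.0343 at 16 weeks); the 16-week call was lost under 8 alternatives, 6 of which left out 1 library (chow replicates 1, 2, 4 and 5 and 16-week replicates 1 and 7). Slc38a10 was called at 8 weeks, with 226 ± 104 CPM at 8 weeks, 180.5 ± 10.2 CPM at 16 weeks and 161 ± 7.96 CPM on chow (edgeR adjusted p = 0.0422 at 8 weeks and 0.503 at 16 weeks), and that call was lost without any one of the 5 chow libraries. Its 8-week mean holds 483 CPM in replicate 3, without which the log2 change was 0.22 (edgeR adjusted p = 0.00662) in place of 0.49. Leaving that replicate out also gave a call at 16 weeks (log2 change 0.16, edgeR adjusted p = 0.0296). Slc38a9, the lysosomal arginine sensor upstream of mTORC1, was not called, with 10.8 ± 1.53 CPM at 8 weeks, 10.3 ± 1.14 CPM at 16 weeks and 11.3 ± 0.352 CPM on chow (edgeR adjusted p = 0.597 at 8 weeks and 0.308 at 16 weeks). Slc38a6 was not called either, with 7.18 ± 1.7 CPM at 8 weeks, 6.88 ± 0.804 CPM at 16 weeks and 6.17 ± 0.509 CPM on chow (edgeR adjusted p = 0.236 at 8 weeks and 0.428 at 16 weeks), but without 8-week replicate 3 it was called higher at 8 weeks (log2 change 0.30, edgeR adjusted p = 0.0199).

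**Figure D4:**
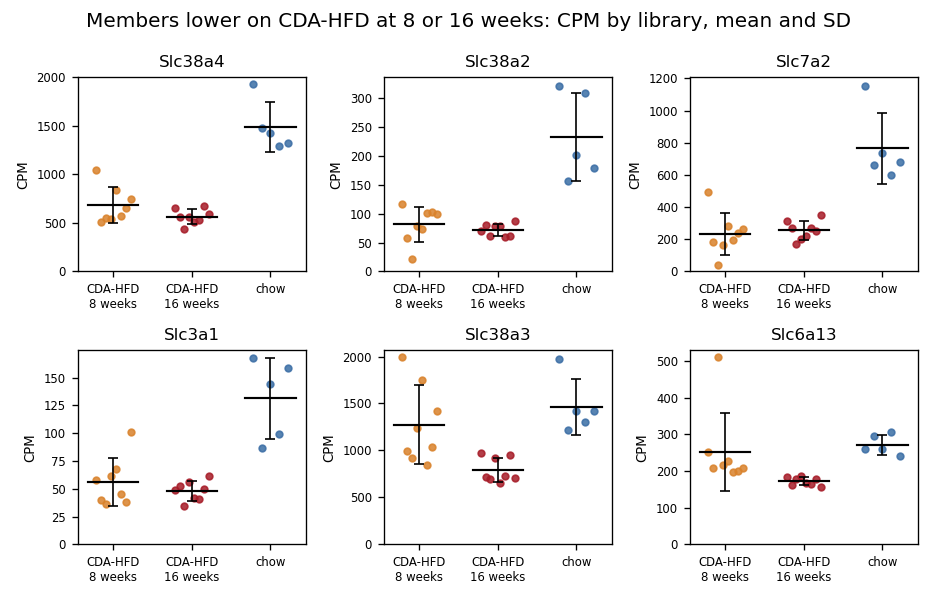
CPM by library (y axis, from 0, own scale per panel) of 6 members called lower on CDA-HFD at 8 or 16 weeks, with CDA-HFD groups to the left of chow; points are libraries, long lines are means and bars are SDs. Chow replicate 1 is the highest chow point for Slc38a4 (1928 CPM), Slc7a2 (1152 CPM) and Slc38a3 (1975 CPM), and 8-week replicate 3 is the high point for Slc6a13 (511.5 CPM).

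Among the sodium- and chloride-coupled carriers of the SLC6 family, creatine and proline carriers were higher. Slc6a8 (ENSMUSG00000019558, chrX:73673150-73682502), the creatine carrier, is low in hepatocytes, which make and release creatine. Slc6a8 ran from 18.5 to 102 CPM (median 34.3) in 8-week livers and from 42.9 to 71.1 CPM (median 52.3) in 16-week livers, against 8.82, 8.95, 10.3, 8.28 and 11.7 CPM in the 5 chow livers. All CDA-HFD libraries lay above chow, and 8-week replicate 3 far above the rest of its group. In log2 terms Slc6a8 changed by 2.07 ± 0.31 (SE) after 8 weeks and by 2.46 ± 0.32 after 16 weeks, with edgeR adjusted p = 1.97e-05 and 1.67e-06. Without replicate 3 the 8-week value was 1.71. Slc6a7 (ENSMUSG00000052026), a proline carrier known from the brain, was expressed at a low level. The 8-week livers held 0.295 to 1.53 CPM (median 0.497) and 16-week livers 1.31 to 4.16 CPM (median 2.22) of Slc6a7, and the chow livers 0.0735, 0.0574, 0.169, 0 and 0.137 CPM. It lay above every chow library in all CDA-HFD livers. The log2 change of Slc6a7 was 2.83 ± 0.54 (SE; edgeR adjusted p = 0.000248) at 8 weeks and 4.72 ± 0.55 (edgeR adjusted p = 3.99e-07) at 16 weeks. It had 165 counts at 8 weeks and 1029 at 16 weeks, against 14 on chow in all 5 libraries together.

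The osmolyte and glycine carriers were lower where they were called. Slc6a6, the taurine carrier, had 110.2 ± 48.3 CPM at 8 weeks, 164 ± 32.2 CPM at 16 weeks and 208 ± 46.8 CPM on chow. The 8-week log2 change was -0.92 ± 0.27 (SE; edgeR adjusted p = 0.00884), some libraries overlapped with chow, and the 16-week change was not called (edgeR adjusted p = 0.312). Its 8-week call was lost with total counts alone (log2 change -0.68, edgeR adjusted p = 0.117). Slc6a13, or GAT2, a carrier of GABA and taurine in periportal hepatocytes, was the third most abundant member per length in each group. Levels of Slc6a13 were 196 to 512 CPM (median 213) at 8 weeks and 156 to 187 CPM (median 173) at 16 weeks of CDA-HFD, against 259.6, 295, 259.7, 306 and 239.8 CPM on chow. Chow libraries lay above all 16-week libraries, whereas 8-week replicate 3 was the highest of all 21. The 16-week log2 change was -0.66 ± 0.18 (SE; edgeR adjusted p = 0.0044), or -0.13 with total counts alone (edgeR adjusted p = 0.229). At 8 weeks Slc6a13 was not called (edgeR adjusted p = 0.639), but without replicate 3 the log2 change was -0.35 (edgeR adjusted p = 0.000848).

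Slc6a12, the betaine carrier BGT1, was not called against chow, with 120.2 ± 99.7 CPM at 8 weeks, 61.2 ± 10.3 CPM at 16 weeks and 87.9 ± 12.1 CPM on chow (edgeR adjusted p = 0.249 at 8 weeks and 0.178 at 16 weeks). The 8-week replicate 3 held 364 CPM, and without it the fit gave a 16-week log2 change of -0.53 (edgeR adjusted p = 0.00157). Slc6a9, the glycine carrier GLYT1, was lower, with 33.5 ± 3.72 CPM at 8 weeks, 33.8 ± 6.32 CPM at 16 weeks and 45 ± 12.2 CPM on chow, a log2 change of -0.43 at 8 weeks and -0.42 at 16 weeks (edgeR adjusted p = 0.0317 at 8 weeks and 0.0339 at 16 weeks). With total counts alone the 16-week value turned to 0.10 (edgeR adjusted p = 0.698), each call was lost without chow replicate 2, 3 or 4, and the groups overlapped. The 8-week call was also lost without 8-week replicate 5, and the 16-week call without 16-week replicate 2, 4 or 8. Slc6a9 overlaps B4galt2 and Ccdc24 on the other strand. Slc6a16, an orphan carrier, was higher at 8 weeks, with 3.29 ± 2.36 CPM at 8 weeks, 1.44 ± 0.564 CPM at 16 weeks and 1.18 ± 0.23 CPM on chow (edgeR adjusted p = 0.00316 at 8 weeks and 0.522 at 16 weeks), and its 8-week log2 change of 1.46 was 1.07 without replicate 3. Slc6a4, the serotonin carrier, stayed under 1 CPM and was not called.

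The SLC43 family, uniporters for large neutral amino acids and, for Slc43a3, nucleobases, had 3 tested members. Slc43a2 (ENSMUSG00000038178, chr11:75531694-75577575), or LAT4, lets large neutral amino acids pass in either direction. Slc43a2 ran from 39.1 to 67.3 CPM (median 49.98) in 8-week livers and from 60.3 to 94 CPM (median 71.4) in 16-week livers, against 22.2, 18.1, 21.1, 19.6 and 19.8 CPM in the 5 chow livers. All CDA-HFD libraries lay above chow. In log2 terms Slc43a2 changed by 1.35 ± 0.14 (SE) after 8 weeks and by 1.85 ± 0.14 after 16 weeks, with edgeR adjusted p = 1.44e-07 and 1.98e-09. Slc43a1, or LAT3, was called at 8 weeks, with 11.2 ± 3.77 CPM at 8 weeks, 6.63 ± 1.14 CPM at 16 weeks and 6.21 ± 0.819 CPM on chow (edgeR adjusted p = 0.00179 at 8 weeks and 0.717 at 16 weeks). Slc43a3 was called at 16 weeks, with 50.8 ± 15.1 CPM at 8 weeks, 78.3 ± 8.64 CPM at 16 weeks and 41.7 ± 4.71 CPM on chow (edgeR adjusted p = 0.215 at 8 weeks and 0.000552 at 16 weeks); without 8-week replicate 3 it was also called at 8 weeks (log2 change 0.39, edgeR adjusted p = 0.00406). The SLC36 family carries small amino acids with protons, much of it out of lysosomes, and its 3 tested members were not called in either comparison against chow. Slc36a1 had 53.3 ± 17.2 CPM at 8 weeks, 49.6 ± 8.18 CPM at 16 weeks and 62.6 ± 5.97 CPM on chow (edgeR adjusted p = 0.341 at 8 weeks and 0.169 at 16 weeks); in the fit without 8-week replicate 3 it was called lower at 16 weeks (log2 change -0.34, edgeR adjusted p = 0.045). Slc36a4 had 15.7 ± 6.1 CPM at 8 weeks, 21 ± 3.63 CPM at 16 weeks and 18 ± 1.85 CPM on chow (edgeR adjusted p = 0.523 at 8 weeks and 0.487 at 16 weeks). Slc36a2 was low, with 0.608 ± 0.958 CPM at 8 weeks, 0.46 ± 0.365 CPM at 16 weeks and 0.267 ± 0.304 CPM on chow (edgeR adjusted p = 0.361 at 8 weeks and 0.496 at 16 weeks). Replicate 3 held 2.92 CPM of it, and without that library the 8-week mean was 0.278 CPM and the log2 change 0.04 in place of 1.02.

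Summed over the 64 members and scaled per kb of exon, carrier transcripts came to 760 ± 138 CPM per kb at 8 weeks and 605 ± 49.2 CPM per kb at 16 weeks, against 1053 ± 152 CPM per kb on chow. With total counts alone the sums were 697 CPM per kb at 8 weeks, 738 at 16 weeks and 889.8 on chow. Slc38a3 and Slc38a4 together made up 52.2 ± 8.01% of that sum at 8 weeks, 46.6 ± 3.01% at 16 weeks and 59.4 ± 2.05% on chow. Slc38a3 led at 8 weeks with 242 ± 79.2 CPM per kb, ahead of Slc38a4 with 159.9 ± 43.5. It also led at 16 weeks, with 150.5 ± 24.8 ahead of 132 ± 18.1. On chow, by contrast, Slc38a4 led with 349.5 ± 60.3 CPM per kb and Slc38a3 followed with 278 ± 56.2. Both genes were measured in the same libraries, so these SDs do not measure the gap between them, and the order was not tested. Slc3a2 stood at rank 6 at 8 weeks, with 27.45 ± 7.01 CPM per kb, and at rank 4 at 16 weeks, with 30.2 ± 4.62, against rank 10 on chow, with 13.95 ± 0.581. The SLC38 sum was 457 ± 119 CPM per kb at 8 weeks and 329 ± 41.2 at 16 weeks, against 687 ± 117 on chow. That of SLC7 was 44.6 ± 13.1 and 48.1 ± 7.60, against 92.9 ± 23.6, most of which was Slc7a2. SLC43 came to 18.5 ± 3.82 and 25.9 ± 2.36, against 12.4 ± 1.01, and SLC1 to 20.8 ± 2.77 and 20.9 ± 4.65, against 16.8 ± 2.03. SLC3 had 52.1 ± 10.5 and 51.5 ± 6.65, against 71.8 ± 16.0 on chow; with total counts alone its 16-week mean was the higher one, 63.1 against 60.8, and the same held for SLC6 (117 ± 5.63 against 158 ± 14.7 with TMM, 143 against 134 with total counts) and SLC36 (12.2 ± 1.90 against 14.0 ± 0.856 with TMM, 14.9 against 11.8 with total counts). These sums were not tested.

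**Figure D5:**
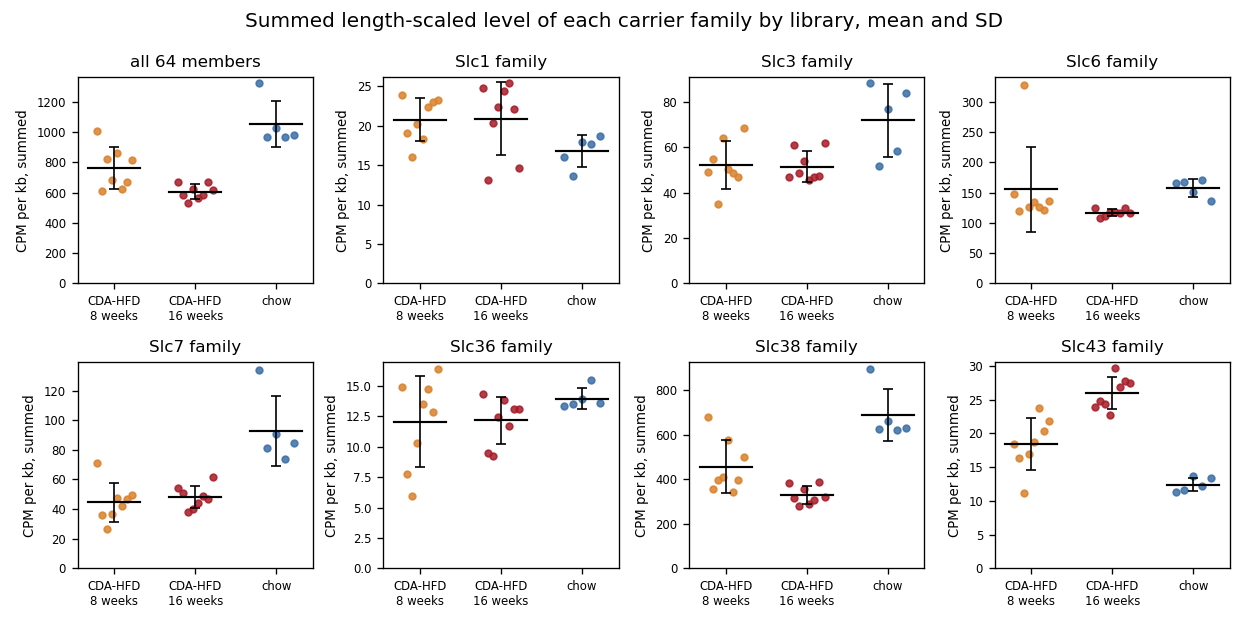
Summed level per kb of exon (y axis, CPM per kb, from 0, own scale per panel) of all 64 members and of each family, by library, after 8 and 16 weeks of CDA-HFD and on chow; points are libraries, long lines are means and bars are SDs. The SLC38 panel has the highest values of any family, with 329 CPM per kb at 16 weeks against 687 on chow, and in the SLC43 panel both CDA-HFD means, 18.5 and 25.9, lie above the chow mean of 12.4.

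Between 8 and 16 weeks of CDA-HFD, 6 of the 38 members were higher and 5 lower at the later time, where 10.6% of all genes were called higher and 11% lower. The median log2 change was -0.02, beside 0.00087 over all genes, and libraries did not overlap for 2 members, beside 3.09% of all genes. A change of at least 2-fold was called in 3 members, beside 8.51% of all genes. Slc7a6 had 4.55 ± 0.765 CPM at 16 weeks against 2.4 ± 0.831 CPM at 8 weeks (log2 change 0.91 ± 0.22, edgeR adjusted p = 0.00642), and every 16-week library lay above every 8-week library. Slc6a7 had 2.35 ± 0.868 CPM at 16 weeks against 0.655 ± 0.43 CPM at 8 weeks (log2 change 1.88 ± 0.37, edgeR adjusted p = 0.0015). Slc43a2 had 72.6 ± 11 CPM at 16 weeks against 51.5 ± 9.54 CPM at 8 weeks (log2 change 0.50 ± 0.12, edgeR adjusted p = 0.00541), and Slc43a3 78.3 ± 8.64 CPM at 16 weeks against 50.8 ± 15.1 CPM at 8 weeks (log2 change 0.62 ± 0.17, edgeR adjusted p = 0.0134). Slc7a4 had 2.7 ± 1.06 CPM at 16 weeks against 1.59 ± 0.5 CPM at 8 weeks (log2 change 0.77 ± 0.22, edgeR adjusted p = 0.0193), and Slc1a1 rose as well (log2 change 1.52, edgeR adjusted p = 0.0155), a call lost when 8-week replicates 3, 4 and 5 were left out together (edgeR adjusted p = 0.0632). In each of these cases but Slc7a6 the groups overlapped.

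The 5 members that were lower at 16 than at 8 weeks include Slc38a3 and Slc6a13, both carriers of hepatocytes. Slc38a3 had 794 ± 131 CPM at 16 weeks against 1275 ± 418 CPM at 8 weeks (log2 change -0.68 ± 0.17, edgeR adjusted p = 0.00983). Slc6a13 had 172 ± 11.1 CPM at 16 weeks against 253 ± 106 CPM at 8 weeks (log2 change -0.55 ± 0.16, edgeR adjusted p = 0.0215), and no library overlapped. Without 8-week replicate 3 the 8-week mean of Slc6a13 was 216 CPM and the log2 change -0.32 (edgeR adjusted p = 0.00266). Slc6a12 had 61.2 ± 10.3 CPM at 16 weeks against 120.2 ± 99.7 CPM at 8 weeks (log2 change -0.97 ± 0.28, edgeR adjusted p = 0.0209), a value that became -0.47 without 8-week replicate 3. Slc43a1 had 6.63 ± 1.14 CPM at 16 weeks against 11.2 ± 3.77 CPM at 8 weeks (log2 change -0.75 ± 0.17, edgeR adjusted p = 0.00504). Slc6a16 had 1.44 ± 0.564 CPM at 16 weeks against 3.29 ± 2.36 CPM at 8 weeks (log2 change -1.17 ± 0.31, edgeR adjusted p = 0.0131), or -0.78 without 8-week replicate 3, and the call was lost without 8-week replicates 3, 4 and 5 together (edgeR adjusted p = 0.0662). With total counts alone, the log2 changes of Slc38a3, Slc6a13, Slc6a12 and Slc43a1 were -0.29, -0.05, -0.36 and -0.33, and none of the 4 was called. The Slc6a12 and Slc6a13 calls were also lost in a fit of only those 2 groups. Slc7a11 was not called between the times (edgeR adjusted p = 0.933). Nor was Slc6a8 (edgeR adjusted p = 0.271), although without 8-week replicate 3 it was called higher at 16 weeks, with a log2 change of 0.74 in place of 0.39 (edgeR adjusted p = 0.00249). Slc7a1 lay close to the threshold (log2 change 0.70, edgeR adjusted p = 0.0546) and was called without 8-week replicate 6, 7 or 8 or 16-week replicate 3. Without 8-week replicate 6, Slc38a1, Slc6a6 and Slc7a6os were called too, with log2 changes of 0.58, 0.71 and -0.31.

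Genes of the pathways around the carriers were read from lists chosen with earlier results of these data known. Of 24 tested target genes of the amino acid response (ATF4 targets), 18 were higher and the other 6 not called at 8 weeks, and 11 were higher and 3 lower at 16 weeks, with median log2 changes of 1.54 and 0.79. As shares, 75% were higher and 0% lower at 8 weeks, beside 30.8% and 20.5% of all genes. At 16 weeks 45.8% were higher and 12.5% lower, beside 29.4% and 22.5% of all genes. Fgf21, a hepatic stress hormone, had 90.7 ± 55.4 CPM at 8 weeks, against 1.65 ± 0.826 CPM on chow (log2 change 5.77, edgeR adjusted p = 4.43e-07). Trib3, a pseudokinase that feeds back on ATF4, had 51.5 ± 18 CPM at 8 weeks, against 2.67 ± 0.923 CPM on chow (log2 change 4.27, edgeR adjusted p = 2.36e-08). Nupr1, a stress-induced chromatin protein, had 39.9 ± 44.4 CPM at 8 weeks, against 1.07 ± 0.28 CPM on chow (log2 change 5.21, edgeR adjusted p = 6.48e-07). Without 8-week replicate 3 its log2 change was 4.53. Between 16 and 8 weeks, 1 of the 24 was higher and 3 were lower, or 7 lower without 8-week replicate 3. Over all genes, 10.6% were higher and 11% lower between these times in the main fit. Glutathione synthesis and NRF2 target genes numbered 14, of which 7 were higher and 2 lower at 8 weeks, and 8 were higher and 3 lower at 16 weeks, with median log2 changes of 0.92 and 0.75. As shares of the 14, 50% were higher and 14.3% lower at 8 weeks, and 57.1% higher and 21.4% lower at 16 weeks. Hmox1, heme oxygenase, had 142 ± 56.6 CPM at 8 weeks, against 44.3 ± 8.16 CPM on chow (log2 change 1.68, edgeR adjusted p = 0.000205), whereas Gclc, the catalytic subunit of the first enzyme of glutathione synthesis and named after its values were seen, had 375 ± 132 CPM at 8 weeks, against 679 ± 118 CPM on chow (log2 change -0.86, edgeR adjusted p = 0.0102).

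Amino acid breakdown was followed in 26 genes, of which 1 was higher and 12 lower at 8 weeks and 18 were lower at 16 weeks, with median log2 changes of -0.36 and -1.08. Of 6 urea cycle genes, 4 were lower at 8 weeks and 5 at 16 weeks, with medians of -0.90 and -1.49, where 20.5% and 22.5% of all genes were lower. Without 8-week replicate 3, Hpd, Hgd and Fah were also called lower at 8 weeks (edgeR adjusted p = 0.0473, 0.0036 and 0.0181). So was Asl of the urea cycle, with a log2 change of -1.10 in place of -0.42 (edgeR adjusted p = 6.98e-05). Tat, tyrosine aminotransferase, had 1028 ± 406 CPM at 8 weeks, against 2984 ± 997 CPM on chow (log2 change -1.54, edgeR adjusted p = 0.000503). Arg1, which splits arginine into ornithine and urea, had 579.9 ± 189 CPM at 8 weeks, against 1688 ± 406 CPM on chow (log2 change -1.54, edgeR adjusted p = 8.79e-06). Cps1, the entry enzyme of the urea cycle, had 1839 ± 849 CPM at 8 weeks, against 5119 ± 1253 CPM on chow (log2 change -1.48, edgeR adjusted p = 0.000533). Among 5 genes of glutamine and glutamate metabolism, 2 were higher and 1 lower at 8 weeks (40% and 20%), beside 30.8% and 20.5% of all genes. Gls2, the liver glutaminase, had 237 ± 60.9 CPM at 8 weeks, against 668 ± 313 CPM on chow (log2 change -1.49, edgeR adjusted p = 4.86e-05), and Glul, glutamine synthetase of pericentral hepatocytes, had 1447 ± 156 CPM at 8 weeks, against 768 ± 188 CPM on chow (log2 change 0.91, edgeR adjusted p = 0.00878).

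Among 20 genes that let mTORC1 sense amino acids, 1 was higher and 4 lower at 8 weeks, and 4 were higher and 7 lower at 16 weeks. As shares of the 20 genes, 5% were higher and 20% lower at 8 weeks, beside 30.8% and 20.5% of all genes. At 16 weeks 20% were higher and 35% lower, beside 29.4% and 22.5% of all genes. The 8-week counts depended on replicate 3. Without it, Sesn1, Rragc and Lamtor3 were also called higher at 8 weeks (edgeR adjusted p = 3.75e-05, 0.00779 and 0.02). Sesn3, Rraga and Tsc2 were then also called lower (edgeR adjusted p = 0.0118, 0.00347 and 6.35e-05). Rragd, a Rag GTPase that binds mTORC1 at lysosomes, had 8.65 ± 5.37 CPM at 8 weeks, 32.2 ± 7.76 CPM at 16 weeks and 2.81 ± 0.554 CPM on chow, and libraries of the 3 groups did not overlap. In creatine, betaine and taurine metabolism, 2 of 13 genes were higher and 4 lower at 8 weeks (15.4% and 30.8% of them), with Csad, which makes the taurine precursor hypotaurine, at 123 ± 25.5 CPM at 8 weeks, against 776 ± 195 CPM on chow (log2 change -2.66, edgeR adjusted p = 5.23e-10). Ckb, brain-type creatine kinase, had 8.95 ± 5.92 CPM at 8 weeks, against 1.19 ± 0.104 CPM on chow (log2 change 2.89, edgeR adjusted p = 2.72e-06). Among 14 tested other amino acid and peptide carriers, 2 were higher and 5 lower at 8 weeks (14.3% and 35.7%). Slc15a3, a lysosomal peptide and histidine carrier of immune cells, had 66.7 ± 51 CPM at 8 weeks, against 9.09 ± 1.22 CPM on chow (log2 change 2.87, edgeR adjusted p = 1.20e-06). Of 7 carrier partners and regulators, 1 was higher and 2 lower at 8 weeks (14.3% and 28.6%): Cd44, which binds Slc7a11 at the surface of some cancer cells, had 54.2 ± 18.8 CPM at 8 weeks, against 14.8 ± 3.58 CPM on chow (log2 change 1.87, edgeR adjusted p = 5.71e-06), while Nedd4 and Nedd4l, ubiquitin ligases for membrane proteins, were lower.

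Marker lists of cell types and tissues were read as well, where 30.8% of all genes were called higher and 20.5% lower at 8 weeks. At 16 weeks those shares of all genes were 29.4% and 22.5%. Kupffer cell and macrophage markers were higher in 12 of 13 cases at 8 weeks and 9 of 13 at 16 weeks, when 1, Timd4, was lower, and their summed level was 1686 to 2868 CPM at 8 weeks and 2477 to 5011 CPM at 16 weeks, against 391 to 506 CPM on chow. Stellate cell and myofibroblast markers, 9 of 11 higher at 8 weeks and 8 of 11 at 16 weeks, summed to 537 to 1872 and 1052 to 1718 CPM, against 169 to 281 CPM. T and NK cell markers were higher in 9 of 10 cases and lower in 1 at each time. Bile duct markers, 4 of 7 higher at 8 weeks and 7 of 7 at 16 weeks, summed to 41.2 to 94.8 and 81.0 to 172 CPM, against 37.2 to 45.0 CPM. The 94.8 CPM was 8-week replicate 3. Without that library Krt19 and Sctr were not called at 8 weeks (edgeR adjusted p = 0.265 and 0.111). Periportal hepatocyte markers, with 3 of 7 lower at 8 weeks and 5 of 7 at 16 weeks, summed to 2458 to 6119 and 2491 to 3335 CPM, against 8009 to 10820 CPM. Pericentral hepatocyte markers were higher in 3 of 9 cases and lower in 0 at 8 weeks, and higher in 2 and lower in 1 at 16 weeks. Of 8 sinusoidal endothelial markers, 2 were higher and 1 lower at 8 weeks, and 1 was higher and 1 lower at 16 weeks. Of 8 general hepatocyte markers, 1 was higher and 4 lower at 8 weeks and 6 were lower at 16 weeks, with median log2 changes of -0.15 and -0.90. Their sum was 95290 to 338800 CPM at 8 weeks, highest in replicate 3, and 72640 to 103300 CPM at 16 weeks, against 101400 to 149500 CPM, so the labelled tissue was present in all libraries. The hepatocyte marker called higher at 8 weeks, Apoa1, was not called without replicate 3 (log2 change 0.38 in place of 1.35, edgeR adjusted p = 0.115). The 8-week call of the stellate marker Des was lost too. Stab2, Lyve1, Fcgr2b and Hsd17b13 were then called higher at 8 weeks, and Znrf3 lower. Exocrine pancreas markers reached 9584 CPM in 8-week replicate 4. In 8-week replicate 3, squamous epithelium markers summed to 1777 CPM, skeletal muscle markers to 3116 CPM, fat tissue markers to 417 CPM and red blood cell markers to 1129 CPM, each the highest of the 21 libraries. Squamous markers reached 257 CPM at 16 weeks, against 0.631 CPM on chow, and muscle markers 450.3 CPM at 16 weeks, against 442 CPM on chow. The part of any of these cell types or tissues in the carrier results was not tested.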

How the data were processed

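Raw counts for each Ensembl gene in 21 liver libraries were deposited by the authors; the libraries were made from total RNA (Qiagen RNeasy) with the Illumina TruSeq Stranded Total RNA kit per the labels' protocols. Per the submitters' processing notes, reads were placed on GRCm38. The sources used here do not name the aligner, the counting program, the annotation release or the use of strand. Each sample's own counts equalled its column of the series table in 21 of 21 samples. Symbols (52489 of 52636 IDs), biotypes, positions and exon lengths came from GENCODE for GRCm38.

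From these counts, edgeR 4.0.16 in R 4.3.3 fitted all 21 libraries in 1 quasi-likelihood model of group, after filterByExpr (minimum count 10; 17104 genes with 99.961% of the counts) and TMM scaling. Calls were made at a Benjamini-Hochberg adjusted p under 0.05 over all genes tested, and each standard error is the log2 change divided by the square root of the F statistic. CPM and CPM per kb were computed from TMM-scaled libraries. Figures were drawn with matplotlib 3.10.9 in Python 3.11.15.

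The members, gene lists and tests were chosen with earlier results of these data known. Genes described by name are members of at least 1 CPM in a group that were called with a log2 change of at least 1 in size, and a panel of well-known members. These are the 31 named members counted below. Other members are described in brief, with called genes from each pathway list. Those were not always the genes with the largest 8-week change: Rhbg (log2 change 3.55) and Ggt1 (3.47) led their lists at 8 weeks and are not described. Slc1a1 and Gclc are said to be named after their values were seen. Alternatives were DESeq2 size factors, total counts alone, no filter, a mean of at least 1 CPM as the filter, the Wald test of DESeq2 1.42.0, only the 2 groups compared, each library left out in turn, 8-week replicates 3, 4 and 5 left out together, and a fit without the 5 libraries that hold the most squamous epithelium transcripts. The procedure was also run on simulated counts, and the outcome is not given here. Those counts held no outlying library, so that run does not cover data such as 8-week replicate 3. Reads carry no molecular identifiers, so counting intervals treat copies of 1 molecule as separate.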

Additional observations from a re-analysis of the deposited data

Results flagged for a closer look

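Of 93 sets of libraries (31 named members in 3 groups), 12 had a library far from the others of its group by Dixon's test, where chance gives about 5%. Of these, 8 were 8-week replicate 3: Slc38a10 (483 CPM, next library 209), Slc6a12 (364 CPM, next 109), Slc6a13 (511.5 CPM, next 252), Slc6a8 (101.5 CPM, next 42.4), Slc38a7 (59.1 CPM, next 39.1), Slc7a7 (51.0 CPM, next 19.2) and Slc6a16 (8.83 CPM, next 3.63) were high there, and Slc1a2 (74.8 CPM, next 129) was low. Another 3 were high in chow replicate 1: Slc38a3 (1975 CPM, next 1420), Slc38a4 (1928 CPM, next 1474) and Slc7a2 (1152 CPM, next 736). Slc38a7 was low in chow replicate 5 (23.3 CPM, next 27.0).

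For 9 named members the levels after 16 and after 8 weeks of CDA-HFD differed by edgeR's test of 16 against 8 weeks. The log2 difference was 1.88 for Slc6a7, 0.91 for Slc7a6, 0.62 for Slc43a3 and 0.50 for Slc43a2, higher at 16 weeks. It was -1.17 for Slc6a16, -0.97 for Slc6a12, -0.75 for Slc43a1, -0.68 for Slc38a3 and -0.55 for Slc6a13, lower at 16 weeks. With total counts alone, Slc38a3, Slc43a1, Slc6a12 and Slc6a13 were not called.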

How the results depend on the processing

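For the member changes that were called, direction and call were kept in 1651 of 1707 recomputed values, 55 were no longer called and 1 turned round: the 16-week log2 change of Slc6a9 was 0.10 with total counts alone, in place of -0.42. Of the 55 changes not called, 23 were called under at least 1 alternative, in 52 of 1586 recomputed values. Total counts alone gave 4 members lower in place of 6 at 8 weeks, with 18 higher as before, 23 higher and 4 lower in place of 17 and 7 at 16 weeks, and 12 higher and 1 lower at 16 against 8 weeks in place of 6 and 5. At 16 against 8 weeks, 10 were higher without the 5 libraries highest in squamous epithelium transcripts, and 3 were lower in a fit of only those 2 groups. The cause of each of these shifts was not tested. Leaving out 1 library at a time gave 16 to 20 members higher and 5 to 7 lower at 8 weeks, 15 to 18 higher and 6 to 9 lower at 16 weeks, and 6 to 9 higher and 5 to 6 lower at 16 against 8 weeks. No paired analysis was possible because the labels give no pairing. Counts limit the low members: Slc1a1 had 2 counts and Slc7a11 10 counts in all chow libraries, and 26 members had too few counts to be tested.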
